A study of Rattus norvegicus with 21 samples.

Results

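The proteins of the cytosolic ribosome were followed through 21 2-colour arrays of rat spinal cord RNA. Members were the probes whose platform symbol begins with Rpl or Rps and a digit, or with Rplp, or is Rpsa. Symbols of pseudogenes (3 probes) and of the S6 kinases (3 probes) were left out of the 73 probes found in this way. Rpl30 and Rpsa each had 2 probes, and each gene entered once, through the probe with most values and, at a tie, the one whose identifier comes first. This gave 65 genes of the 4148 named genes with a value: 40 of the large subunit, 22 of the small subunit and the 3 stalk proteins Rplp0, Rplp1 and Rplp2. All 65 could be tested in every comparison, and 53 had a value on all 21 arrays, the least being 19 arrays.

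The study asked how anti-inflammatory compounds act on the injured spinal cord. Each of 7 groups held 3 arrays, and each array set the RNA of a sample against a pool of RNA from 4 hr cultures of rat spinal cord. The treated groups were CKIN, MP and Acet (acetaminophen, an analgesic) against the pool of PBS cultures, Indo (indomethacin, which inhibits both cyclooxygenases) against the pool of ETOH cultures, and NS398, which prefers cyclooxygenase 2, against the pool of DMSO cultures. CKIN and MP are letters in the labels and are read, from knowledge of the field, as cytokine inhibitors and methylprednisolone. Injured 4 hr denotes unpooled PBS cultures and Uninjured denotes freshly dissected cord, both against the PBS pool, so every group but Uninjured had been cut and held in culture. The labels give no strain, age, dose or way of injury. Nor do they say whether replicates were separate animals or cultures, so a p-value speaks only for the spread among these arrays, which may be technical. The deposited values are log2 ratios, taken as sample over pool from the order of names in the titles, which is likely but not stated.

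Ribosomes join ribosomal RNA to these proteins in a small subunit that reads the mRNA and a large subunit that forms the peptide bond. Because most of the proteins are needed in equal number, their mRNAs are abundant and usually kept in step, and many begin with a run of pyrimidines through which the mTOR pathway controls their translation. In spinal cord they are found in every cell type, and the translation of this class of mRNA is a known control point of growth in neurons and glia. In whole tissue, fewer cells of a type and less RNA per cell cannot be told apart. Ratios carry no level, so the tissue label could not be checked from them. In the comparison of Injured 4 hr with Uninjured cord, 13 of 15 neuronal, 8 of 8 astrocyte and 7 of 9 oligodendrocyte markers were measured. Of the 5376 probes of the table, with the Gapdh spots averaged, 4823 were measured there too, so a measured marker spot does not check the tissue.

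On the deposited ratios the members formed a narrow band whose position differed between arrays. The median member stood at 0.60, -0.14 and -0.47 on the CKIN arrays. It stood at 0.47, 0.86 and 0.67 on the MP arrays, and at 1.07, 1.13 and 0.35 on the Acet arrays. It was 0.57, 0.34 and -0.21 on the Indo arrays, and 0.21, 0.25 and 0.48 on the NS398 arrays. All 3 Injured 4 hr arrays, at -0.31, -0.29 and -0.11, lay below 0, and the Uninjured arrays, at -1.74, -1.57 and -0.94, lay lower than all others. The medians of all probes differed far more, between -4.13 on an Uninjured array and 0.69 on an Acet array, so a level is stated below relative to the median of its own array (the centred ratio) unless another scale is named.

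Centred in this way, the median member stood at 0.60, 0.49 and -0.27 on the CKIN arrays, against 1.96, 1.92 and 2.03 on the Injured 4 hr arrays and 2.20, 2.57 and 2.17 on the Uninjured arrays. The MP arrays held 0.17, 2.20 and 0.29, the Acet arrays 0.38, 1.92 and 1.06, the Indo arrays 0.34, 0.52 and 0.00, and the NS398 arrays 0.37, 1.14 and 2.10. Replicates of MP, Acet and NS398 thus lay as far apart as whole groups did. These levels went with the number of missing spots. On the 10 arrays with more than 1100 missing spots (all of CKIN and Indo, MP replicates 1 and 3, Acet replicate 1 and NS398 replicate 1) the median member stood between -0.27 and 0.60, and on the other 11 arrays between 1.06 and 2.57, so the sets did not overlap. Among treated arrays alone, the 5 with fewer missing spots held 1.06 to 2.20. The mean of the 51 Gapdh spots, a glycolytic enzyme transcript, moved likewise, lying between 0.27 and 1.20 on the sparse arrays and between 1.39 and 4.03 on the others, and the correlation of Gapdh with the median member over the 21 arrays was 0.91. Relative to Gapdh the sparse arrays held -0.99 to -0.07 and the other treated arrays -0.43 to -0.20, which overlap.

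**Figure D1:**
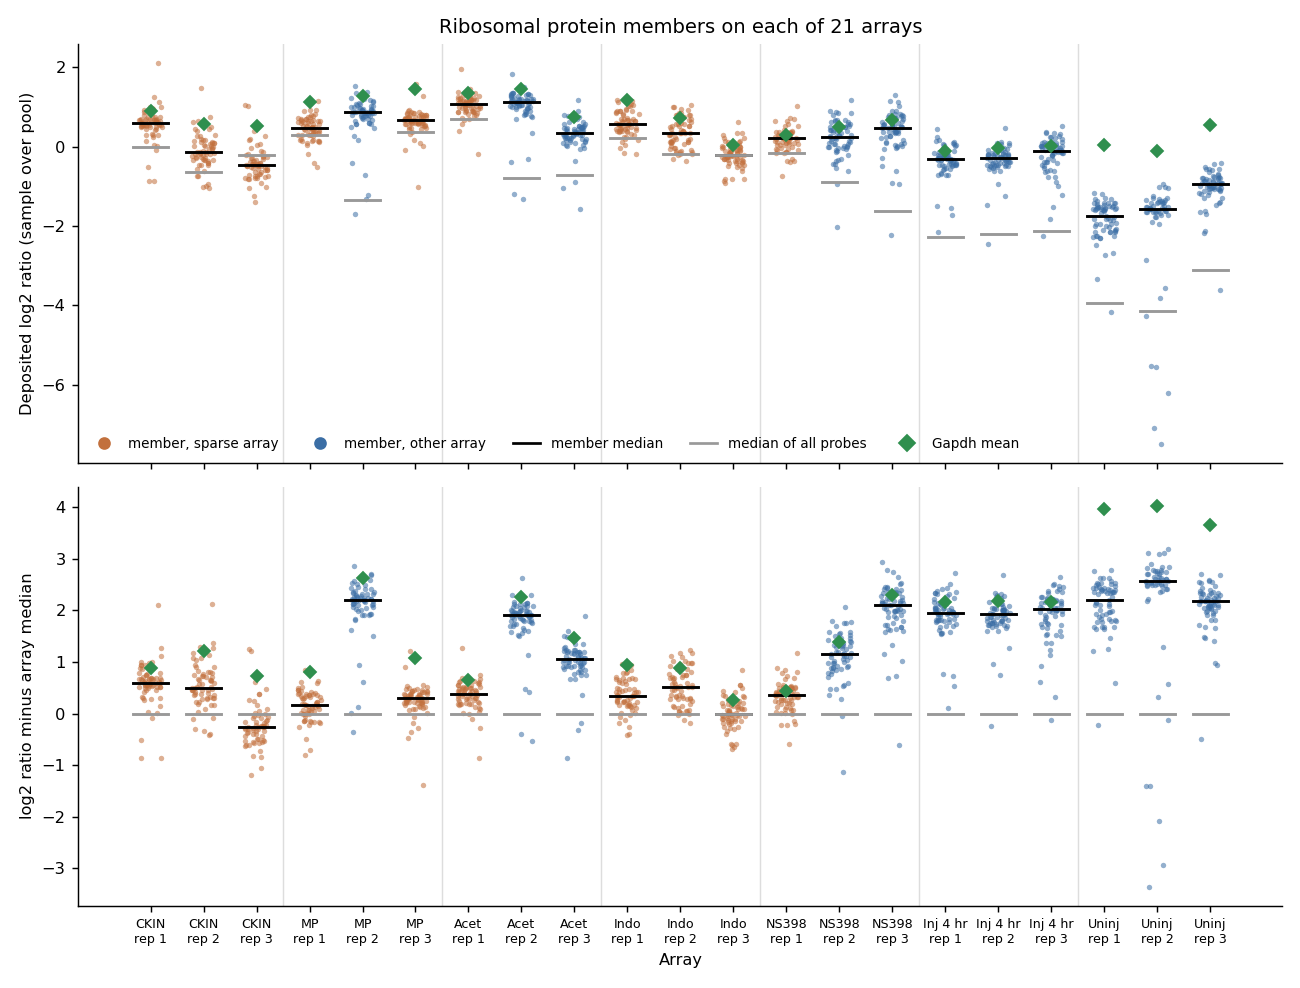
Each point is 1 of the 65 members on 1 array, as the deposited log2 ratio (top) and minus the array median (bottom), for groups in the order CKIN, MP, Acet, Indo, NS398, Injured 4 hr, Uninjured. Orange marks the 10 sparse arrays and blue the other 11, the black line is the member median, the grey line the median of all probes and the green diamond the Gapdh mean; on centred ratios the sparse arrays lie between -0.27 and 0.60 and the others between 1.06 and 2.57.

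The members kept together within an array. Correlated with the median of the other members over the 21 arrays, 54 of the 65 had r above 0.9 and the median r was 0.97, a description in which the shared shifts of the arrays enter. Around the family median of each array, a member's SD was 0.22 in the middle of the list, and it was below 0.3 for 48 members and above 0.5 for 11. Rps7, a small subunit protein, kept an SD of 0.12, and Rpl10, which completes the large subunit late in its assembly, one of 0.13. On Uninjured replicate 2, 5 members lay more than 3 below the family, namely Rps21 at -5.92, Rpl26 at -5.51, Rps10 at -4.64, Rpl11 at -3.98 and Rps2 at -3.97. On the other 20 arrays no member lay more than 2.71 below it.

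**Figure D2:**
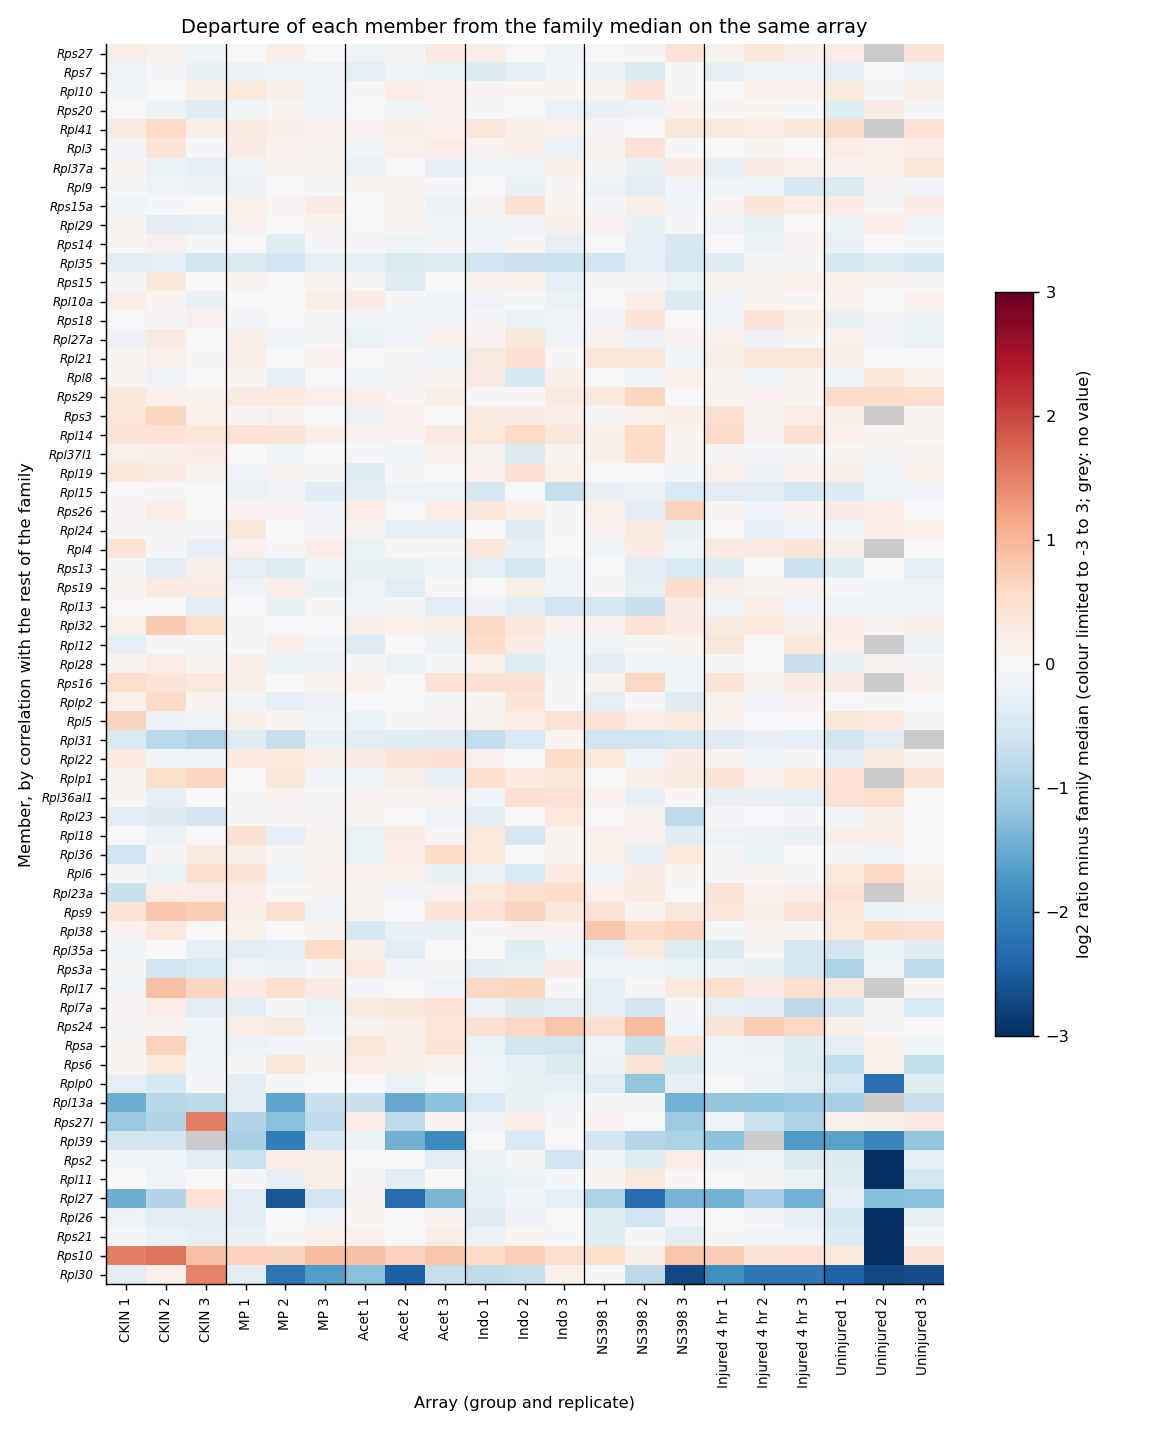
Heatmap of the log2 ratio of each member (rows, from highest to lowest correlation with the rest) minus the family median on the same array (columns, grouped as CKIN, MP, Acet, Indo, NS398, Injured 4 hr, Uninjured); red is above the family, blue below, with colours limited to 3 in either direction, and grey is no value. Most rows are pale throughout, and the strong colours are in the lowest rows and in Uninjured replicate 2, where Rps21 reached -5.92.

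A feature that the choice of members did not use was the start of transcription. RefSeq promoters on GRCr8 could be matched to 54 members by gene identifier. They were searched, on the strand that reads as the mRNA, for an oligopyrimidine start, a C followed by at least 4 bases that are C or T. The annotated start was itself such a C in 21 of 54 members (38.9%), against 722 of 27457 promoters of all genes (2.63%). This count includes starts that lie inside a longer run begun upstream. Within 20 bases of the start the motif was present in 47 members (87.0%), against 48.0% of all promoters. The shorter CTTTC, which overlaps that motif, lay within 20 bases in 30 members (55.6%), against 5.77% of all promoters, and its reverse complement GAAAG in 1 member (1.85%), against 5.60%. The windows below are those of some of the members described in the comparisons. They run from 15 bases before the annotated start to 15 bases from it, with the longest oligopyrimidine run in capitals. In Rpl31, Rpl10 and Rplp1 it begins at the annotated start. Rpl11 and Rpl3 have no such run in this window. Nor do Rps19, Rpl26 and Rps27l, also described, and further members whose windows are not printed.
Rps24 (chr16:96502-96531, plus strand): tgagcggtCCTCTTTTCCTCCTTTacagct
Rpl23 (chr10:83272170-83272199, minus strand): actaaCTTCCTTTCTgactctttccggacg
Rpl31 (chr9:49143096-49143125, plus strand): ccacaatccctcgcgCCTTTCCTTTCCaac
Rpl10 (chrX:157205835-157205864, plus strand): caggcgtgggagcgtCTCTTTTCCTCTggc
Rpl38 (chr10:100200420-100200449, plus strand): cttcgttCTTTTTCCgttgttcggtgctcg
Rplp1 (chr8:71290858-71290887, minus strand): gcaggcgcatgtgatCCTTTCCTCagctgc
Rpl11 (chr5:153560788-153560817, minus strand): ggggacttgaagcttgtttggtgctgggga
Rpl3 (chr7:113507976-113508005, minus strand): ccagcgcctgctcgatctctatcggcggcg

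Between CKIN and Injured 4 hr cultures, the ribosomal proteins were lower as a body on centred ratios. Of the 65 members 49 fell and none rose at a limma adjusted p below 0.05, while 18% of all probes tested fell. The median member differed by -1.62, against -0.38 for the median probe. On 64 members the groups did not overlap, 63 of them with every measured CKIN array below every Injured 4 hr array, an order found for 38.5% of all probes. The direction was not kept on the deposited ratios, where 58 of 65 members lay above 0, the median member was 0.31 higher in CKIN and the median probe 1.54 higher.

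In the small subunit, Rps24 showed the lowest estimate of all members. This protein is needed for maturation of the small subunit, and in humans its mutation causes a form of Diamond-Blackfan anaemia. Its centred ratios were 0.55, 0.57 and -0.40 on the CKIN arrays, against 2.36, 2.69 and 2.65 on the Injured 4 hr arrays. All CKIN arrays were below all Injured 4 hr arrays, the difference was -2.32 ± 0.50 (SE), and the limma adjusted p was 0.00700. Rps14, on the platform of the small subunit, had 0.62, 0.62 and -0.29 in CKIN, against 1.94, 1.72 and 2.11 in Injured 4 hr, a difference of -1.61 ± 0.45 (adjusted p = 0.0218, limma). Rps6, the substrate of the S6 kinases, differed by -1.37 ± 0.56 and did not pass (adjusted p = 0.0848, limma). Rps19 and Rps27, whose human counterparts are further anaemia genes, fell by 1.62 ± 0.56 and 1.85 ± 0.57 (adjusted p = 0.0460 and 0.0300, limma), and Rps3, at the mRNA entry channel, by 1.58 ± 0.55 (adjusted p = 0.0498, limma). In all, 16 of 22 small subunit members fell, with a median of -1.61.

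In the large subunit 31 of 40 members fell, with a median of -1.64. Rpl23, a member that can also bind the p53 regulator Mdm2, had centred ratios of 0.29, 0.08 and -0.85 on the CKIN arrays, against 1.98, 1.94 and 1.99 on the Injured 4 hr arrays. The CKIN arrays were all lower, and the difference was -2.13 ± 0.48 (SE; adjusted p = 0.00801, limma). Rpl31, at the mouth of the exit tunnel of the large subunit, had 0.14, -0.31 and -1.20 in CKIN, against 1.56, 1.68 and 1.74 in Injured 4 hr, a difference of -2.12 ± 0.49 (adjusted p = 0.00961, limma). Rpl10 had 0.51, 0.51 and -0.09 in CKIN, against 1.95, 2.08 and 2.18 in Injured 4 hr, and differed by -1.76 ± 0.49 (adjusted p = 0.0221, limma). Again no CKIN array reached the Injured 4 hr arrays. Rpl13a, which in human cells can leave the ribosome to silence inflammatory mRNAs, fell by 1.56 ± 0.33 (adjusted p = 0.00700, limma). Rpl3, near the peptidyl transferase centre, fell by 1.64 ± 0.52 (adjusted p = 0.0329, limma), and Rpl22, which is not needed by every ribosome, by 1.68 ± 0.52 (adjusted p = 0.0303, limma). Of the pair that binds Mdm2 together with ribosomal 5S RNA, Rpl5 fell by 1.58 ± 0.53 (adjusted p = 0.0415, limma), and Rpl11 at -1.68 ± 0.63 did not pass (adjusted p = 0.0647, limma). The SE of a member rests on its spread in all 7 groups. Rpl11 lay at -1.41 on Uninjured replicate 2, an array outside this comparison that enters its SE. Its CKIN arrays, at 0.61, 0.38 and -0.29, all lay below its Injured 4 hr arrays, at 1.96, 1.95 and 1.83.

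The stalk recruits elongation factors to the large subunit. Rplp0, its base, had 0.30, 0.02 and -0.31 in CKIN, against 1.93, 1.75 and 1.72 in Injured 4 hr, and fell by 1.80 ± 0.55 (adjusted p = 0.0294, limma). Of the proteins that attach to it, Rplp2 fell by 1.49 ± 0.50 (adjusted p = 0.0427, limma), and Rplp1 at -1.56 ± 0.56 lay just outside the threshold (adjusted p = 0.0532, limma). The differences of the 3 stalk members are closer to one another than the SE of any of them. Among members with values on all compared arrays, the highest estimates were 0.80 ± 0.40 for Rpl30, -0.90 ± 0.85 for Rps10 and -1.07 ± 0.41 for Rpl27, none of which passed. The SE of Rps10 also includes Uninjured replicate 2, where it lay at -2.08.

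The calls depended on the scale and on single arrays. Relative to Gapdh 0 of 65 members passed in limma, while 0.642% of all probes did. At an unadjusted p below 0.05 there were 10 members, against 1172 of 3737 probes. The median member stood at -0.39 and the median probe at 0.83. After a loess curve of each array against the mean of the Injured 4 hr arrays was subtracted, 0 passed and the median member was at -0.10, while 2.09% of all probes passed. At an unadjusted p below 0.05 there were 4 (Rpl13a, Rpl23, Rpl30 and Rpl31), against 609 of 3737 probes. The members thus lay 1.24 below the median probe on centred ratios, but 0.13 below it on the loess residuals. Gapdh-scaled and deposited ratios differ from centred ones only by a constant for each array, so their 1.22 and 1.23 repeat the first value. The loess curve is fitted on the Injured 4 hr mean, so the mean Injured 4 hr residual is near 0 by construction. With the set of sparse arrays as a block, which MP, Acet and NS398 span, 0 passed in limma, against 0.134% of all probes, and the median member was at -0.21. With that block 3 had an unadjusted p below 0.05 (Rpl13a, Rpl27 and Rpl30), against 460 of 3737 probes. All CKIN arrays were sparse and no Injured 4 hr array was, so the set cannot be told apart from the groups within this comparison alone. A further split is not removed by that block. Values equal to the log2 of a ratio of whole numbers up to 30 made up 11.7% to 19.6% of each treated array. On the Injured 4 hr and Uninjured arrays they made up 0.8% to 1.7%. Every comparison of a treatment with Injured 4 hr is confounded with this difference, whose cause was not tested. Without CKIN replicate 3 there were 6 members lower, a share close to the 8.96% of all probes that were lower in that fit. Without Injured 4 hr replicate 1 there were 10, against 6.12% of all probes, and without its replicate 2 or replicate 3 there were 6 each, against 5.33% and 5.09%.

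**Figure D3:**
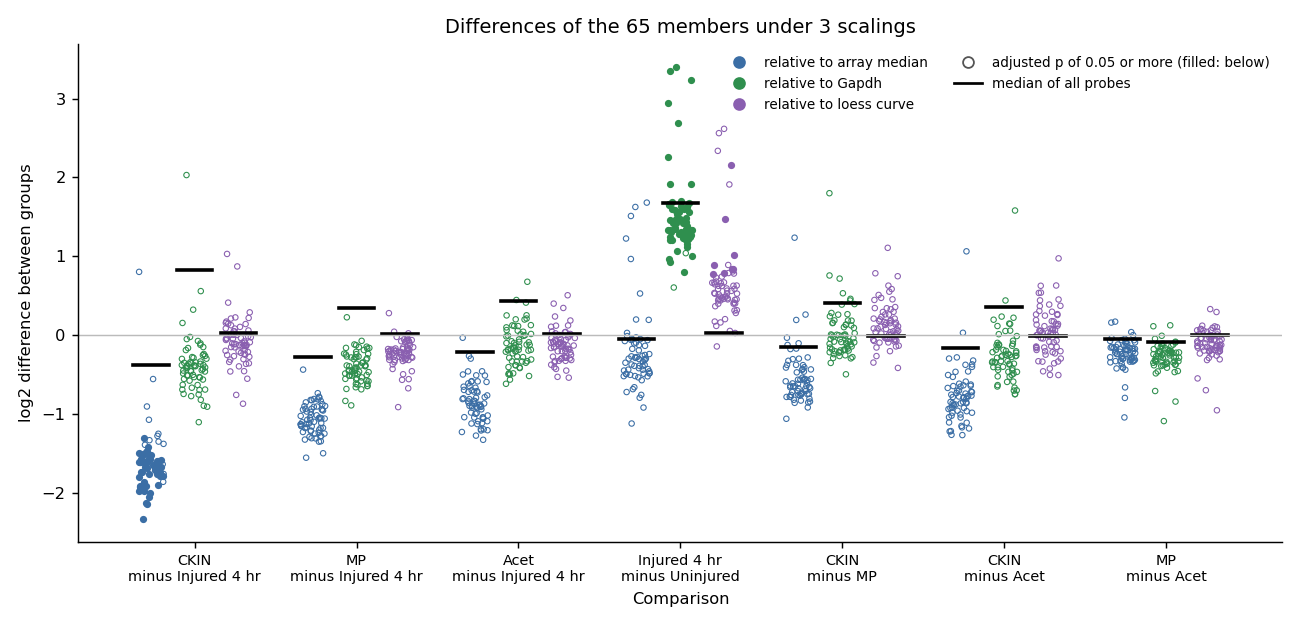
Log2 differences of the 65 members (points) in 7 comparisons, relative to the array median (blue), to Gapdh (green) and to a loess curve (purple); filled points have a limma adjusted p below 0.05, and the black bar is the median of all probes. In CKIN minus Injured 4 hr the blue points lie at a median of -1.62 with 49 filled, and the green and purple ones at -0.39 and -0.10 with none filled; on deposited ratios, which are not drawn, the median is 0.31.

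The members stood high on the scale that this curve uses. The mean centred ratio on the Injured 4 hr arrays was 1.97 for the median member, with quartiles at 1.76 and 2.11, against -0.05 for the median of 4881 probes, and the member median stood at the 96.9th percentile of all probes. Of the members 60 lay on source plates 8 and 9, as read from probe identifiers. On those plates 46 of 60 members fell in CKIN with a median of -1.62, and 33 of 121 other probes fell with a median of -0.60. Of the 5 members on other plates 3 fell, with a median of -1.57, and of all remaining probes 592 of 3551 fell with a median of -0.34.

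**Figure D4:**
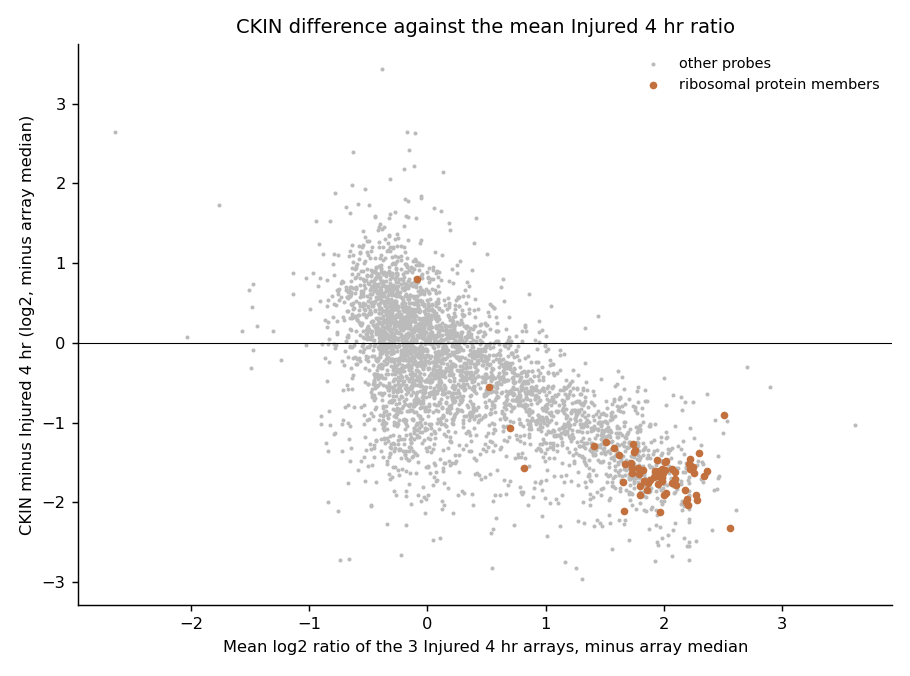
Each point is a probe, with its mean centred log2 ratio on the 3 Injured 4 hr arrays on the x axis and its CKIN minus Injured 4 hr difference on centred ratios on the y axis; members are orange, other probes grey. The Injured 4 hr arrays enter both axes. Most members lie together at the right (Rpl30 is the one above 0), with a median of 1.97 on the x axis and -1.62 on the y axis, among other probes that also lie below 0; the sign of the member median turns to 0.31 on deposited ratios.

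MP and Acet cultures were set against the same Injured 4 hr arrays, so these comparisons share their controls with that of CKIN. In MP, 0 of 65 members passed in limma, against 2% of all probes in either direction, and 34 had an unadjusted p below 0.05, against 17.5%. The median member differed by -1.07 and the median probe by -0.27 on centred ratios, and on deposited ratios by 0.91 and 1.66. Rps24 stood at 0.39, 2.46 and 0.20 on the MP arrays, against 2.36, 2.69 and 2.65 on the Injured 4 hr arrays. MP replicate 2 lay among the Injured 4 hr arrays and the other replicates far below them, for a difference of -1.55 ± 0.50 (adjusted p = 0.10, limma). Rps27l, a paralogue of Rps27, at -1.49 ± 0.45 (adjusted p = 0.0791, limma) and Rpl35, at the tunnel exit, at -1.34 ± 0.49 (adjusted p = 0.141, limma) had the next lowest estimates. Without MP replicate 2, the one MP array that is not sparse, 53 members fell, against 15.3% of all probes. The groups did not overlap for 7 members, all lower in MP, against 20.4% of all probes.

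In Acet, 0 of 65 members passed in limma, against 1.22% of all probes, and 14 had an unadjusted p below 0.05, against 13.4%. The median member differed by -0.86 (-0.52 without Acet replicate 1) and the median probe by -0.21 on centred ratios, and by 1.07 and 1.64 on deposited ratios. Rps24 had 0.49, 2.12 and 1.42 in Acet, against 2.36, 2.69 and 2.65 in Injured 4 hr. Here the groups did not overlap, and the difference of -1.22 ± 0.50 did not pass (adjusted p = 0.255, limma). Lower estimates were those of the large subunit members Rpl17, at -1.32 ± 0.58, and Rpl12, at -1.27 ± 0.57. In 25 members every measured Acet array lay below every Injured 4 hr array, an order found for 20.4% of all probes.

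The treatments with a common pool were also set against one another. Between CKIN and MP 0 members passed in limma, against 0% of all probes, and 3 (Rpl13a, Rpl30 and Rpl23) had an unadjusted p below 0.05, against 15.2%. Between CKIN and Acet 0 passed, against 0.08%, and 9 had such a p, against 17.4%. Between MP and Acet 0 passed, against 0.0228%, and 1 had such a p (Rps27l), against 6.1%. The median member differed by -0.61, -0.78 and -0.21 in these comparisons, against -0.14, -0.15 and -0.04 for the median probe. These medians depended on single arrays. Between CKIN and MP it was 0.04 without MP replicate 2, -0.30 without CKIN replicate 3 and -0.94 without MP replicate 1. Between CKIN and Acet it was -0.41 without Acet replicate 2 and -0.50 without CKIN replicate 3. Between MP and Acet the sign turned without MP replicate 1 (0.13), MP replicate 3 (0.10) or Acet replicate 2 (0.14), and the median was -0.85 without MP replicate 2 and -0.61 without Acet replicate 1. With the array set as a block, the medians were -0.13 between CKIN and MP, 0.13 between CKIN and Acet and 0.26 between MP and Acet. The median SE of a member was 0.51 in each, so a difference of that size between compounds was not detectable with 3 arrays a group.

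Indo and NS398 could be tested only against their own pools, that is against 0, where the pool is a single control sample whose spread is outside the test. As a measure of such a test, the Injured 4 hr cultures against the PBS pool set like RNA against like RNA, and still 62 of 65 members were higher on centred ratios at a limma adjusted p below 0.05, against 21% of all probes. Their median was 1.97. The exceptions were Rpl27, Rpl30 and Rpl39. Rps24, with 2.36, 2.69 and 2.65, had the highest mean at 2.56 ± 0.35 (SE), and Rpl13a, with 0.77, 0.75 and 0.92, the lowest of those that passed among members with values on all 3 arrays, at 0.81 ± 0.24. Relative to Gapdh, by contrast, 8 members were lower and none higher, against 91.3% of all probes past the threshold in either direction, and on deposited ratios 6 were lower, with a median of -0.23, where 90.5% of all probes were lower and the median probe stood at -2.25.

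With Indo, 0 of 65 members differed from the ETOH pool in limma, against 13.1% of all probes, and 2 (Rps24 and Rpl23a) had an unadjusted p below 0.05, against 26%. The median member stood at 0.27 and the median probe at 0.02. Rps24 had 0.81, 1.12 and 0.84 on the Indo arrays, a mean of 0.92 ± 0.35 that did not pass (adjusted p = 0.0903, limma). This SE pools the spread of all 7 groups and is not that of the Indo arrays. The SD of the centred family median was 0.26 in Indo, and ran from 0.05 in Injured 4 hr to 1.14 in MP. The lowest estimate was that of Rpl35, at -0.34 ± 0.34 on centred ratios, and relative to Gapdh it stood at -1.20, -1.02 and -0.91 on the Indo arrays. All 3 Indo arrays were sparse. Relative to Gapdh the sign of the family turned, with the median member at -0.43. There 8 members were lower, Rpl35 among them, a smaller share than the 23.4% of all probes that were lower, and the median probe stood at -0.68.

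With NS398, 49 of 65 members were higher than the DMSO pool on centred ratios, against 10.6% of all probes, with a median of 1.21. By subunit 30 of 40 large, 18 of 22 small and 1 of 3 stalk members were higher. Relative to Gapdh only 1 member was higher and 7 were lower, against 78.9% of all probes past the threshold in either direction, and the median was -0.17. The count rested on NS398 replicates 2 and 3, which are not sparse: without replicate 3 it was 3 members (Rpl38, Rps24 and Rps29), a share near the 4.09% of all probes, and without replicate 2 it was 16, against 6.18%. Without replicate 3 the median member stood at 0.75.

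Rpl38 was the member that stood above the others in NS398. It is a small protein of the large subunit that, in mouse embryos, is needed for translation of Hox mRNAs and for the pattern of the axial skeleton. Its centred ratios were 1.17, 1.75 and 2.74 on the NS398 arrays, all above 0, with a mean of 1.89 ± 0.35 (SE; adjusted p = 0.000813, limma). That centred mean is not above the like-against-like background. On the Injured 4 hr arrays Rpl38 stood higher, at 2.01 ± 0.35 (adjusted p = 0.000236, limma). Relative to the family median of each array it stood at 0.80, 0.60 and 0.64 on the NS398 arrays, against -0.03, 0.08 and 0.09 on the Injured 4 hr arrays. These are the highest departures of Rpl38 on any array; the next were 0.54 and 0.51 on Uninjured arrays, and the lowest were the Acet arrays with -0.49, -0.22 and -0.22. Relative to Gapdh Rpl38 was 0.73, 0.36 and 0.44 on the NS398 arrays and below 0 on all others, and it was the one member called higher on that scale (0.51 ± 0.22, adjusted p = 0.0416, limma). On the loess residuals 2 members passed, Rpl38 at 0.83 and Rpl37l1 at 0.47, against 13.2% of all probes. Rpl38 kept its call in each of the 13 alternatives run for it, among them leaving out each NS398 array in turn, with estimates of 0.51 to 2.24. It was measured by 1 probe, and the comparison is with 1 pool.

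Rpl27, of the large subunit, lay at the other end in NS398, with -0.73, -2.04 and -0.91 on deposited ratios. All were below 0 and the mean was -1.23 there, one of the 3 members that passed on that scale, beside Rpl38 at 0.99 and Rps24 at 0.73. Of all probes 43.6% passed there, nearly all of them lower, and the median probe stood at -0.98, so a value below 0 was common on that scale. On centred ratios its mean was -0.33 ± 0.29 and did not pass (adjusted p = 0.449, limma). Its departure from the family was also low on MP replicate 2 at -2.56, on Acet replicate 2 at -2.32 and on NS398 replicate 2 at -2.28. On the other arrays it ran from -1.46 on CKIN replicate 1 to 0.42 on CKIN replicate 3.

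Rpl30, also of the large subunit, was measured by 2 probes that disagreed. The member probe had centred ratios of 0.29, 0.65 and 1.22 on the CKIN arrays, against 0.11, -0.23 and -0.13 on the Injured 4 hr arrays, so it was higher in CKIN where the rest of the family was lower, without passing (0.80 ± 0.40, adjusted p = 0.159, limma). It followed the family least of all members (r = -0.24). The other probe, on the same plate as most members, had -0.03, 0.33 and -0.25 on the CKIN arrays, against 1.81, 0.73 and 1.46 on the Injured 4 hr arrays, and fell by 1.32 ± 0.37 (adjusted p = 0.0232, limma). Both probes had 21 values, and reading identifiers by their number would have taken the other one. With arrays centred on the median of the members themselves, Rpl30 was the 1 member called in CKIN, at 2.50 (adjusted p = 0.0166, limma), against 32.8% of all probes. The probes of Rpsa, which also serves as a laminin receptor, differed by -1.27 (adjusted p = 0.122, limma) and -1.51 (adjusted p = 0.0350, limma) in CKIN, and so in the same direction.

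**Figure D5:**
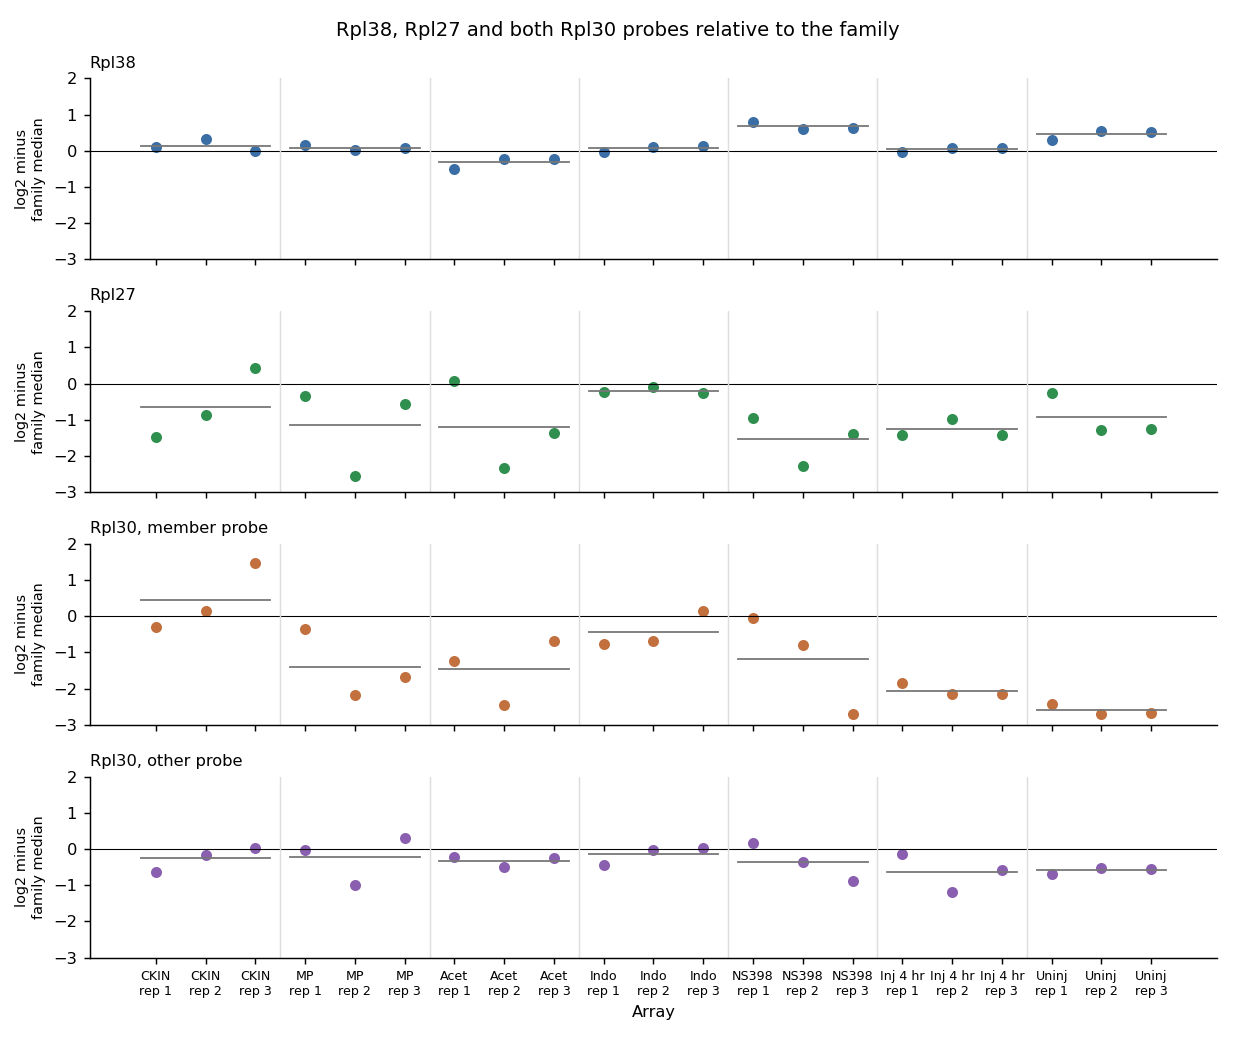
Log2 ratio minus the family median on the same array (y axis) for Rpl38, Rpl27, the member probe of Rpl30 and its other probe, on 21 arrays in the order CKIN, MP, Acet, Indo, NS398, Injured 4 hr, Uninjured; grey bars are means of 3 arrays. Rpl38 is highest on the NS398 arrays (0.80, 0.60 and 0.64), and the member probe of Rpl30 runs from -2.71 to 1.49 while its other probe stays between -1.19 and 0.30.

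Between Injured 4 hr cultures and Uninjured cord, 0 of 65 members passed on centred ratios in limma, against 14.2% of all probes, and 1, Rps27l, had an unadjusted p below 0.05, against 28.9%. The median member differed by -0.30 (-0.19 without Uninjured replicate 2) and the median probe by -0.04. Rps27l, which p53 induces in human cells, had 1.81, 1.28 and 1.13 in Injured 4 hr, against 2.34, 2.76 and 2.47 in Uninjured cord. The groups did not overlap, and the difference was -1.12 ± 0.45 (adjusted p = 0.10, limma). The highest estimates, 1.68 for Rps21, 1.63 for Rpl26 and 1.51 for Rps10, belong to members that were far below the family on Uninjured replicate 2, and none passed. In 28 members every measured Injured 4 hr array lay below every Uninjured array, an order found for 32.9% of all probes.

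The sign of this comparison turned with the scale. Relative to Gapdh 63 of 65 members were higher in Injured 4 hr cultures, with a median of 1.39, but 60.2% of all probes were higher and the median probe stood at 1.67. On deposited ratios 45 were higher, with a median of 1.16, against 49.5% of all probes and a median probe at 1.47. On the loess residuals 8 were higher (Rpl11, Rplp0, Rps24, Rpl35, Rps9, Rps18, Rpl14 and Rpl21), against 2.63% of all probes, with a median of 0.56 beside 0.03 for the median probe. That curve is fitted on the mean Injured 4 hr ratio, so the mean Injured 4 hr residual is near 0 by construction. The residual differences thus reflect the Uninjured arrays alone and are no separate measure of the sign. The members lay below the median probe on centred, deposited and Gapdh-scaled ratios, by 0.26, 0.31 and 0.28. Those scales differ only by a constant for each array, so these values count as a single measure. The members lay above the median probe by 0.53 on the loess residuals and by 0.66 after quantile normalization.

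Of the members called on the residuals, Rpl11 had centred ratios of 1.96, 1.95 and 1.83 in Injured 4 hr, against 1.82, -1.41 and 1.65 in Uninjured cord, and its residuals differed by 2.16. Only Uninjured replicate 2 lay far off, and without it the difference on centred ratios was 0.18. Rplp0 had 1.93, 1.75 and 1.72 in Injured 4 hr, against 1.69, 0.31 and 1.82 in Uninjured cord, where again replicate 2 was the low one. Rps24 had 2.36, 2.69 and 2.65 in Injured 4 hr, against 2.41, 2.50 and 2.18 in Uninjured cord. These overlap on centred ratios (0.20 ± 0.50, adjusted p = 0.812, limma), and the residuals differed by 1.01 (adjusted p = 0.0262, limma).

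Other genes of the translation apparatus were listed beside the members, with counts on centred ratios from the same fit, to be read beside the 18% of all probes that fell in CKIN. On deposited ratios 0% of all probes were lower in CKIN, MP or Acet than in Injured 4 hr. Relative to Gapdh 0.0268% were lower in CKIN. The falls given here for these treatments are thus calls on centred ratios, and none of them was kept on deposited ratios. Of 6 measured genes on the elongation factor list 3 fell in CKIN relative to Injured 4 hr. They were Eef1a1, which brings aminoacyl-tRNA to the ribosome (-1.87), Eef1d, part of its exchange factor (-1.56), and Tpt1 (-2.01). Tpt1, a translationally controlled protein, was listed with them without being an elongation factor. All 6 listed genes lie on plates 8 and 9. Of 11 initiation factor genes tested 4 fell: the cap-binding Eif4e (-1.24), Eif4g2 (-1.86), Eif5 (-1.65) and Eif2b2 (-1.62), a subunit of the exchange factor of eIF2. Of 4 genes on the ribosome-associated list 2 fell, the small subunit scaffold Rack1 (-1.62) and Nap1l1 (-1.90), a histone chaperone. Fau, which encodes a small subunit protein fused to a ubiquitin-like one, differed by -1.40 and did not pass (adjusted p = 0.0604, limma). Of 8 ribosome biogenesis genes 1 fell (Ubtf, a factor of RNA polymerase I, -1.51), of 3 mitochondrial ribosomal proteins 1 (Mrpl17, -1.20), and of 9 genes of the S6 kinase and mTOR pathway 3, namely Mtor (-1.18), Rheb (-1.51) and Fkbp1a (-1.43). List medians were -1.60 for elongation factors, -0.79 for initiation factors, -1.51 for ribosome-associated genes, -0.63 for biogenesis, -0.56 for mitochondrial ribosomal proteins and -0.56 for the pathway, against -0.38 for all probes. In MP relative to Injured 4 hr, 0 genes of the elongation, initiation, associated and pathway lists passed in limma. Of them 2, 3, 2 and 2 had an unadjusted p below 0.05, against 17.5% of all probes. In Acet 0 passed likewise, and the numbers at an unadjusted p below 0.05 were 1, 2, 1 and 3, against 13.4% of all probes. Ubtf fell in MP by 1.79 and in Acet by 1.73, comparisons that share the Injured 4 hr arrays. Between Injured 4 hr and Uninjured cord the members of the mitochondrial ribosome on the array passed on centred ratios where the cytosolic ones did not. This contrast was not itself tested. Mrpl17, Mrpl23 and Mrps24 all fell, by 1.47, 1.38 and 1.12 on the log2 scale, while 13.4% of all probes fell. Relative to Gapdh 0.249% of all probes were lower in this comparison, and on deposited ratios 0.29%.

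Cell type markers also differed in these comparisons on centred ratios. In CKIN relative to Injured 4 hr, 0% of all probes were lower on deposited ratios and 0.0268% relative to Gapdh. For Injured 4 hr relative to Uninjured cord these shares were 0.29% and 0.249%. The falls below are therefore stated for centred ratios alone. In CKIN relative to Injured 4 hr, 4 of 7 oligodendrocyte markers fell (Mbp, Cnp, Mobp and Ugt8, list median -1.69), as did 3 of 13 neuronal markers (Uchl1, Gap43 and Syt1, -0.81), 2 of 8 astrocyte markers (Gfap and S100b, -0.55) and 1 of 6 microglia and macrophage markers (C1qb, -0.11). Of all probes 18% fell, and the neuronal, astrocyte and microglia counts are near that share. None of 5 blood and muscle markers passed in limma, with 0 at an unadjusted p below 0.05. In Injured 4 hr relative to Uninjured cord, 10 of 13 neuronal markers fell (list median -1.89), as did 5 of 8 astrocyte (Aqp4, Slc1a3, Slc1a2, Gfap and Fgfr3, -1.83), 1 of 7 oligodendrocyte (Mog, -0.74) and 1 of 7 blood and muscle markers (Ckm, 0.27), against 13.4% of all probes. The oligodendrocyte and the blood and muscle counts are near that share. Of 7 microglia and macrophage markers 0 passed in limma and 1 had an unadjusted p below 0.05, against 28.9% of all probes. Ratios give no summed level of a list. The part of these lists in the differences of the members was not tested.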

How the data were processed

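Total RNA was compared on 21 2-colour arrays. The authors deposited log2 ratios, of which the values themselves show the base. Dyes, scanner, background correction and normalization are not stated in any label or header. The lowest correlation between arrays was 0.066. The table held 5376 probes, 4962 with a value; blank cells were missing spots. Precision is limited by 3 arrays a group. The 51 Gapdh spots were averaged, and the median over measured probes was subtracted from every array. All arrays entered 1 fit in limma 3.58.1 (R 4.3.3) with 1 coefficient per group. Each probe had 1 residual spread over all 7 groups, so its SE can rest on arrays outside the comparison. A probe needed a value on 2 of 3 arrays of each compared group. The p was adjusted by Benjamini-Hochberg over all probes of a comparison, with a threshold of 0.05. CKIN, MP and Acet were compared with Injured 4 hr, which assumes 1 common PBS pool.

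The alternatives were deposited, quantile normalized and Gapdh-centred ratios, other filters, both probes averaged, array set or replicate number as a block, single arrays left out, and a loess (span 0.4) on the mean Injured 4 hr ratio with and without centring on source plates. The members, lists and tests were chosen with earlier results of these data known. The loess without plates and the centring on the member median were added after seeing the data. Named genes are the 3 highest and 3 lowest members with values on all compared arrays, a fixed list of 21 symbols (19 are members), and members in counts of 5 or fewer. Rps7, Rps18, Rpl14, Rpl21, Rps2 and Rpl37l1 and the list genes were named after their values were seen. Replicate numbers did not pair the samples. Symbols and gene identifiers came from the platform annotation and RefSeq. The fit was also run on simulated data with independent noise for each probe. Those data hold no shift shared by the probes of an array, so they do not check calls made under such shifts.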

Additional observations from a re-analysis of the deposited data

How the results depend on the processing

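Counts below are of the 65 members called by limma on other scalings and fits. The share of all probes called, in the stated direction where there is 1, follows each count. With deposited ratios, 45 were higher in Injured 4 hr minus Uninjured (49.5%), 1 (Rpl30) in CKIN (58.1%), 23 in MP (72%) and 38 in Acet minus Injured 4 hr (71.1%). In the 3 treatments the share of members was thus below that of all probes. On that scale 3 were called in NS398, 2 of them higher (43.6%), and 6 were lower in Injured 4 hr against 0 (90.5%). With Gapdh centring there were 63 higher in Injured 4 hr minus Uninjured (60.2%), 0 in CKIN (0.642%), 8 lower in Indo (23.4%), 8 in NS398, 1 of them higher (78.9%), and 8 lower in Injured 4 hr against 0 (91.3%). Quantile normalization gave 26 lower in CKIN (11.3%), 1 lower (Rps24) in MP (0.706%) and 10 higher in Indo (12.1%). The loess gave 8 higher in Injured 4 hr minus Uninjured (2.63%), 0 in CKIN (2.09%), 1 lower (Rpl35) in Indo (8.3%), 2 higher (Rpl37l1 and Rpl38) in NS398 (5.03%) and 0 in Injured 4 hr against 0 (0%). The loess with source plates gave 0 in CKIN (0.749%), 2 lower (Rpl13 and Rpl35) in Indo (6.37%), 1 higher (Rpl38) in NS398 (4.83%) and 0 in Injured 4 hr against 0 (0%). On the mean of all groups it gave 2 higher (Rpl14 and Rps24) in Injured 4 hr minus Uninjured (2.29%), 3 lower (Rpl13a, Rpl31 and Rpl35) in CKIN (2.82%), 1 higher (Rpl38) in NS398 (2%) and 0 in Injured 4 hr against 0 (0%). Centring on the member median gave 1 higher (Rpl30) in CKIN (32.7%), 1 lower (Rpl35) in Indo (9.07%), 6 in NS398, 1 of them higher (66.8%), and 5 in Injured 4 hr against 0, 1 of them higher (87.6%), namely Rpl13a, Rpl27, Rpl30, Rpl39 and Rps24. With the array set as a block, which was not run for comparisons against 0, 1 (Rps27l) was lower in Injured 4 hr minus Uninjured (18.2%) and 0 were called in CKIN (0.134%). Against the PBS pool alone, 1 (Rpl13a) was lower in CKIN (10.2%), 25 were higher in MP (15.9%) and 46 in Acet (16.9%). Leaving out 1 array gave 6 to 42 lower in CKIN (5.09% to 18.5%), 0 to 53 in MP (0% to 15.3%), 3 to 57 higher in NS398 (4.09% to 13.4%), 57 to 58 in Injured 4 hr against 0 (15.9% to 17.1%) and 0 to 0 elsewhere. The replicate block gave 34 in CKIN (13%), all among the 49, and moved no other count by over 1.5 times; the numbers pair no samples by this check, since same-numbered arrays correlated at -0.18 to 0.51 in their deviations and 0 comparisons had every pair over 0.1. In CKIN most members changed sign with the scale: 58 of 65 lay above 0 on deposited ratios, against 1 on centred ratios. The fit against the PBS pool is another contrast on centred ratios, not another scale. There 58 lay above 0 in CKIN, and 64 did so in the like-against-like Injured 4 hr arrays. Centring on the member median holds the members near 0 as a group by construction, so the 42 above 0 there are no turn of sign. Of the members named here for their calls, those above 0 in CKIN were, on deposited ratios, Rpl10 (0.166), Rps14 (0.317), Rplp0 (0.127) and Rplp2 (0.440), against the PBS pool, Rps24 (0.240), Rpl10 (0.309), Rps14 (0.318), Rplp0 (0.004) and Rplp2 (0.532), and on the member median, Rps14 (0.085) and Rplp2 (0.207). Rplp2 was also above 0 on the loess (0.129) and on its forms with plates (0.168 and 0.082). Against the pool Rps24 stood at 1.016 in MP and 1.341 in Acet. In Injured 4 hr against 0, Rps24 was -0.001 with plates, and Rpl13a was -1.388 deposited, -1.350 by Gapdh, -0.002 with plates, -0.003 by loess and -1.153 on the member median. The loess takes out the mean Injured 4 hr ratio by construction, so 0 there is no measurement. Where the setting does not fix the sign in these ways, the cause of a change was not tested. Outside the arrays left out, 140 of the values of single members kept sign and call, 15 newly passed and 54 no longer passed. The other sign was found for 22, those against the PBS pool and on the member median included. What limits all of this is 3 arrays a group, missing spots and a share of whole-number ratios that go with the groups, and the lack of signal and background values.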
